A study of Homo sapiens with 4 samples.

Results

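Cyclins are the regulatory subunits, and cyclin-dependent kinases (CDKs) the catalytic subunits, of the kinases that drive the cell cycle. The 10 described here are the genes listed in the deposited tables under the symbols CCND1, CCND3, CDK4, CCNE1, CCNE2, CDK2, CCNA2, CDK1, CCNB1 and CCNB2, taken by name from 58735 listed genes. All 10 had reads in every library and all 10 passed the filter on low counts that left 15075 tested genes. The messenger RNA of HaCaT, a human keratinocyte cell line, was sequenced after knockdown of ALKBH5, an enzyme that removes the N6-methyladenosine mark from RNA. There were 4 libraries, all from this one line: 2 from cells that received a control siRNA (siControl, genotype labelled WT) and 2 from cells that received siRNA against ALKBH5 (siALKBH5, labelled a knockdown), each at 200 pmol per transfection. The labels do not say which ALKBH5 siRNA was used, nor whether the 2 libraries of a group came from separate cultures. The p-values below therefore set the difference between groups against the spread between these libraries, which may not cover the spread between cultures.

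D-type cyclins (CCND1, CCND3) pair with CDK4 and its relative CDK6 and carry growth signals into G1, where these kinases phosphorylate the retinoblastoma protein. E-type cyclins (CCNE1, CCNE2) activate CDK2 at entry into S phase. Cyclin A2 (CCNA2) acts with CDK2 in S phase and with CDK1 in G2, and the B-type cyclins (CCNB1, CCNB2) activate CDK1 for entry into mitosis. Transcripts of the A- and B-type cyclins and of CDK1 build up in S and G2 phase, and the basal keratinocytes of the epidermis are its cycling cells. In RNA from a whole culture, a larger share of cells in such a phase and more RNA per cell cannot be told apart.

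Library totals lay between 16017502 and 18837807 counts, and the 10 genes took 0.0777% to 0.0778% of the counts with siControl and 0.0961% to 0.0969% with siALKBH5. The targeted gene ALKBH5 (chr17:18183078-18209954, GRCh38) had 90.6 ± 4.41 CPM (counts scaled to a common library size, mean ± SD, n = 2) in siControl and 50.3 ± 1.13 in siALKBH5, which was 55.5% of the control level. The keratinocyte markers, KRT5 and KRT14 among them, summed to 16254.9 and 16667.0 CPM in siControl and to between 22027.9 and 22097.5 in siALKBH5. By the test used below, 3 of 7 keratinocyte markers were higher (KRT5, KRT14 and KRT6A) and 3 lower (KRT17, TP63 and ITGB4). Of all tested genes, 19.3% were higher and 17.3% lower. KRT5 alone had a mean of 7023 CPM in siControl and 11232 in siALKBH5, so the sums do not describe every marker. Markers of other cell types summed to 18.7 to 22.8 CPM for fibroblasts, 32.5 to 35.4 for endothelium, 2.72 to 3.88 for melanocytes and 2.42 to 4.22 for immune cells over the 4 libraries. COL1A2, PDGFRA and TYR had no count in any library. Among these markers DCN, LUM and CDH5 were lower and VWF and CD14 higher in siALKBH5, and their part in the results below was not tested.

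Of the 10 genes, 6 were higher in siALKBH5 than in siControl (CCND3, CDK2, CCNA2, CDK1, CCNB1 and CCNB2) and 1 was lower (CCND1), by edgeR's quasi-likelihood test with an adjusted p under 0.05 over all tested genes. By the same rule 19.3% of all tested genes were higher and 17.3% were lower. The remaining 3, CDK4, CCNE1 and CCNE2, did not pass the test. The median log2 fold change of the 10 genes was 0.47, beside -0.0081 over all tested genes. None of the 10 reached a log2 fold change of 1, a size that 1.62% of tested genes reached among those higher, while 5 of the 10 passed 0.5, which 5.88% of tested genes did among those higher. Of these 5, CCND3 and CDK1 lay just above 0.5. In CPM, both siALKBH5 libraries were above both siControl libraries for 6 of the 10, which was so for 32.8% of tested genes, and both were below for 1 of the 10, which was so for 33.4%.

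**Figure D1:**
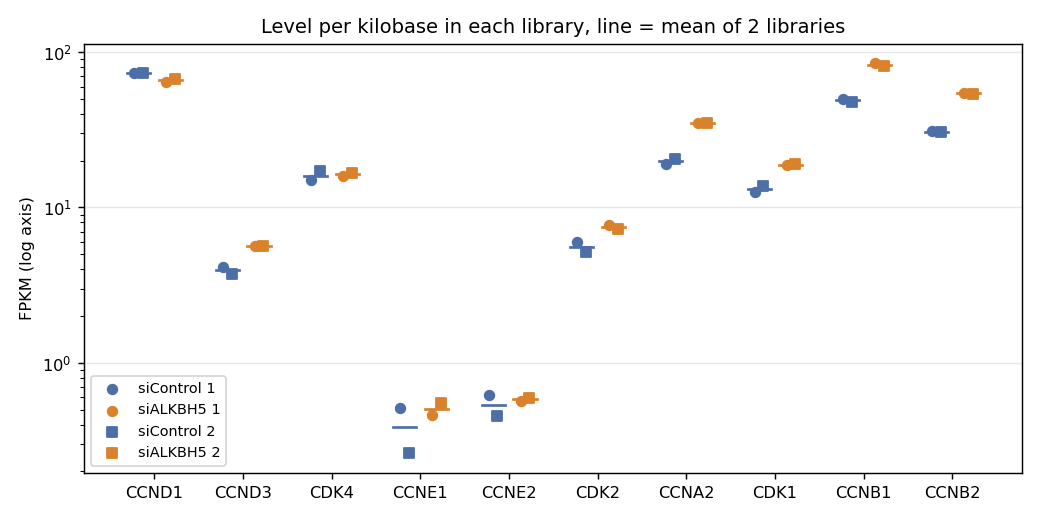
Level of the 10 genes in each library as FPKM (counts per kilobase of listed gene length, scaled to a common library size, logarithmic axis), with siControl in blue, siALKBH5 in orange, circles for the first and squares for the second library of a group and a line at the mean of 2. The orange points sit above the blue points for CCND3, CDK2, CCNA2, CDK1, CCNB1 and CCNB2 and below them for CCND1, and the CCNE1 and CCNE2 points lie under 1 FPKM.

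Among the genes of G1, CCND1 (chr11:69641087-69654474) encodes cyclin D1, the main D-type cyclin of these cells by level. It had 355 and 353 CPM in siControl and 309 and 326 CPM in siALKBH5. Both siALKBH5 libraries were therefore below both controls, and the mean stood at 89.8% of the control mean. The log2 fold change was -0.16 (SE 0.028, 95% interval -0.21 to -0.099, edgeR adjusted p = 3.43e-05), the smallest called change of the 10 genes. Of the exonic bases of CCND1, 10.3% also belong to LTO1 on the opposite strand, which had 353 to 419 counts a library against 5373 to 6363 for CCND1.

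CCND3 (chr6:41934933-42050357) encodes cyclin D3, another partner of CDK4 and CDK6. The controls had 24.2 and 21.7 CPM, and both siALKBH5 libraries had 33.0 CPM to the first decimal (32.99 and 32.95). No siALKBH5 value overlapped with a control value. The log2 fold change was 0.53 (SE 0.081, 95% interval 0.36 to 0.69, edgeR adjusted p = 3.09e-06), a 1.44-fold higher level. CCND1 and CCND3 thus moved in opposite directions. Its processed pseudogene CCND3P1 had between 0 and 5 counts a library, beside 390 to 617 for CCND3.

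CDK4 (chr12:57747727-57756013) encodes the kinase that D-type cyclins activate. Its controls had 47.3 and 54.2 CPM and its siALKBH5 libraries 50.8 and 53.1 CPM, both within the range of the controls. The log2 fold change was 0.028 (SE 0.064, 95% interval -0.10 to 0.16, edgeR adjusted p = 0.775), an interval that leaves out changes larger than 0.16 on the log2 scale. As 43.2% of the exonic bases of CDK4 overlap with TSPAN31 on the opposite strand (527 to 581 counts a library, against 764 to 977 for CDK4) and the strand setting of the counting is not given in the sources used here, reads of that stretch cannot be assigned to either gene with certainty.

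The E-type cyclins were the least abundant of the 10 genes. With control siRNA, CCNE1 (chr19:29811898-29824308) was counted 21 and 12 times and CCNE2 (chr8:94879770-94896678) 44 and 36 times. After knockdown the numbers were 22 and 23 for CCNE1 and 47 and 43 for CCNE2. For both, the groups overlapped once scaled to library size (CCNE1 1.30 and 0.666 CPM against 1.18 and 1.396, CCNE2 2.73 and 1.998 CPM against 2.51 and 2.61). CCNE1 had a log2 fold change of 0.40 (SE 0.41, 95% interval -0.44 to 1.23, edgeR adjusted p = 0.488), and CCNE2 had one of 0.12 (SE 0.27, 95% interval -0.43 to 0.67, edgeR adjusted p = 0.765). At this depth neither a doubling of CCNE1 nor a fall by a log2 of 0.4 lies outside its interval. The interval of CCNE2 leaves out a doubling, but smaller changes in either direction lie within it. A difference was not detected for either gene. The INTS8 gene on the opposite strand shares 37.0% of the exonic bases of CCNE2 and had 841 to 1037 counts a library, and reads of the shared stretch cannot be assigned without the strand.

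CDK2 (chr12:55966769-55972784), the kinase partner of cyclins E and A, had 23.4 and 20.1 CPM in siControl and 29.8 and 28.4 CPM in siALKBH5. The groups did not overlap. The log2 fold change of CDK2 was 0.43 (SE 0.087, 95% interval 0.25 to 0.60, edgeR adjusted p = 0.00018), a 1.34-fold higher level. Its E-type partners did not pass the test, but the intervals of CCNE1 (-0.44 to 1.23) and CCNE2 (-0.43 to 0.67) include this estimate. A difference between the kinase and these partners was therefore not shown. The neighbour AC025162.1, which covers 14.5% of the exonic bases of CDK2 on the opposite strand, had no count in any library. PMEL, also on the opposite strand, shares 2.29% of these bases and had 38 to 61 counts a library, against 362 to 558 for CDK2.

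**Figure D2:**
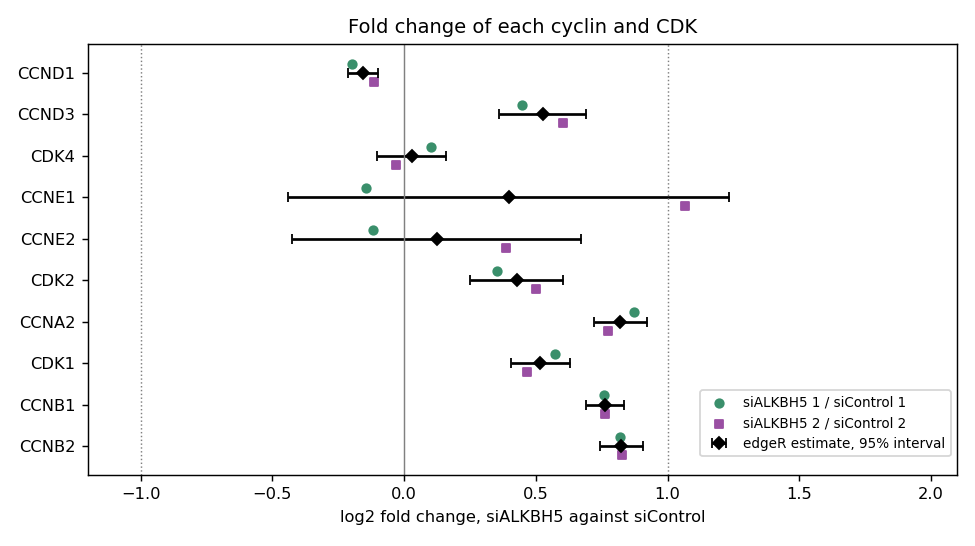
Log2 fold change of the 10 genes, siALKBH5 against siControl, on the horizontal axis. Diamonds and bars are the edgeR estimate and its 95% interval, circles and squares are the ratio of the CPM of the first and of the second library of each group, and dotted lines mark -1 and 1. The intervals of CDK4, CCNE1 and CCNE2 include 0, and those of CCNA2, CCNB1 and CCNB2 lie between 0.69 and 0.92.

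Of the 10 genes, the 3 cyclins of S phase, G2 and mitosis had the largest log2 fold changes. CCNA2 (chr4:121816444-121823933) encodes cyclin A2. Its level was 53.5 and 57.3 CPM in siControl and 97.9 CPM in each siALKBH5 library. The log2 fold change was 0.82 (SE 0.050, 95% interval 0.72 to 0.92, edgeR adjusted p = 3.09e-15), a 1.77-fold higher level. The gap between the groups was far wider than the distance between the duplicates, and 3.53% of tested genes had a higher log2 fold change. The exons of CCNA2 share 9.08% of their bases with EXOSC9 on the opposite strand, which had 207 to 252 counts a library.

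CCNB1 (chr5:69167010-69178245) and CCNB2 (chr15:59105078-59125045) encode cyclins B1 and B2, which bind CDK1. CCNB1 had 128 and 123 CPM in siControl and 216 and 209 CPM in siALKBH5. CCNB2 had 87.1 and 85.3 CPM in siControl and 154 and 152 CPM in siALKBH5. Neither gene had overlapping groups, and both siALKBH5 libraries stood at similar distances above the controls. The log2 fold change was 0.76 (SE 0.036, 95% interval 0.69 to 0.84, edgeR adjusted p = 3.86e-18) for CCNB1. It was 0.82 (SE 0.040, 95% interval 0.74 to 0.91, edgeR adjusted p = 1.1e-17) for CCNB2. Their ratio in FPKM was 1.61 and 1.58 in siControl and 1.54 and 1.51 in siALKBH5, so the pair kept nearly the same proportion. The processed pseudogene CCNB2P1 had no count in any library.

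CDK1 (chr10:60778331-60794852), the kinase that these cyclins activate for mitosis, had 49.6 and 54.0 CPM in siControl and 73.9 and 74.6 CPM in siALKBH5. The groups did not overlap. The log2 fold change was 0.52 (SE 0.055, 95% interval 0.40 to 0.63, edgeR adjusted p = 2.63e-09), a 1.43-fold higher level. Its interval ended below those of CCNA2, CCNB1 and CCNB2 began, so the kinase rose by less than the 3 cyclins it pairs with, a difference between genes that was not itself tested. Per kilobase, CCNB1 was at 3.95 and 3.50 times the level of CDK1 in siControl and at 4.49 and 4.30 times in siALKBH5.

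The promoters of CCNA2, CCNB1, CCNB2 and CDK1 are known for short elements that are shared among genes expressed in G2. Among them is the CCAAT box, which the factor NF-Y binds. Another is the cell cycle genes homology region (CHR), through which the DREAM and MYBL2-FOXM1 complexes act. The RefSeq windows used here (GRCh38.p14) hold a stretch of 250 bases before to 50 after the annotated start for 7 of the 10 genes, 10 windows in all. The promoters of CCND1, CCNE2 and CDK2 were not analysed here. The letters CCAAT, read on either strand, were found in 34.6% of all 35116 RefSeq promoter windows, and more than 1 copy in 10.8%. The letters TTTGAA, used here for the CHR, were in 15.2%, and both were in 5.9%. Only these exact letters were searched, so a window without them is not shown to lack a CHR. The runs below show 30 bases around some of the elements of CCNA2, CCNB1, CCNB2 and CDK1, 4 genes with roles in G2 or mitosis. They let the surroundings of the boxes be compared. The boxes at -244 and -54 of CCNB2 and at -46 of CDK1, and the TTTGAA at 10 of CDK1, are not shown. Capitals mark CCAAT (or ATTGG, the same box on the other strand) and TTTGAA, and positions count back from the annotated start.
CCNA2, -68 to -39 (chr4:121823922-121823951, minus strand): gcgagcgctttcATTGGtccatttcaatag
CCNB1, -99 to -70 (chr5:69167051-69167080, plus strand): gaccggcagccgCCAATgggaagggagtga
CCNB1, -67 to -38 (chr5:69167083-69167112, plus strand): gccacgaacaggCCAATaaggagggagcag
CCNB2, -132 to -103 (chr15:59105014-59105043, plus strand): aagaaaattcagCCAATgagagtgcgagag
CCNB2, -99 to -70 (chr15:59105047-59105076, plus strand): atcttgtgttggCCAATgagaacagcgacc
CCNB2, -41 to -12 (chr15:59105105-59105134, plus strand): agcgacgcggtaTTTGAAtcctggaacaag
CDK1, -90 to -61 (chr10:60778388-60778417, plus strand): agctgggctctgATTGGctgcTTTGAAagt
CDK1, -30 to -1 (chr10:60778448-60778477, plus strand): ccctttagcgcggtgagTTTGAAactgctc

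CCNB2 held 4 CCAAT boxes, which began at -244, -120, -87 and -54, and 1 CHR at -29. The box at -54 overlaps with a GC box (GGGCGG on the other strand, in 45.0% of windows). CCNB1 held 2 boxes, at -87 and -55, and CCNA2 held 1, at -56. CDK1 has 2 RefSeq starts 147 bases apart, and the runs above belong to the second, whose window held 2 CCAAT boxes, at -78 and -46, and 3 copies of TTTGAA, at -69, -13 and 10, with 1 E2F-like site (TTTCGCGC; TTTCGCGC, TTTGGCGC or GGCGGGAA were in 4.24% of windows). The window of the first CDK1 start overlaps with it. By GENCODE 29, the first 2 CCNB2 runs lie upstream of every annotated exon of the gene, 12 of the 30 bases of the CCNA2 run are exonic and the other 5 runs fall within an annotated exon. The windows of CDK4, CCNE1 and the first CCND3 start held GC boxes but neither CCAAT nor TTTGAA, and the other CCND3 starts held 1 CCAAT box each. In all, 5 of the 7 genes had a CCAAT box in a window, 3 had more than 1 in a window and 2 had TTTGAA. These are counts of genes with a match in any of their windows, and CCND3 and CDK1 have several. The shares over all promoters are per window, so they are not a like measure. A match is a description of these letters and no evidence of binding, and no binding was measured in these libraries.

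**Figure D3:**
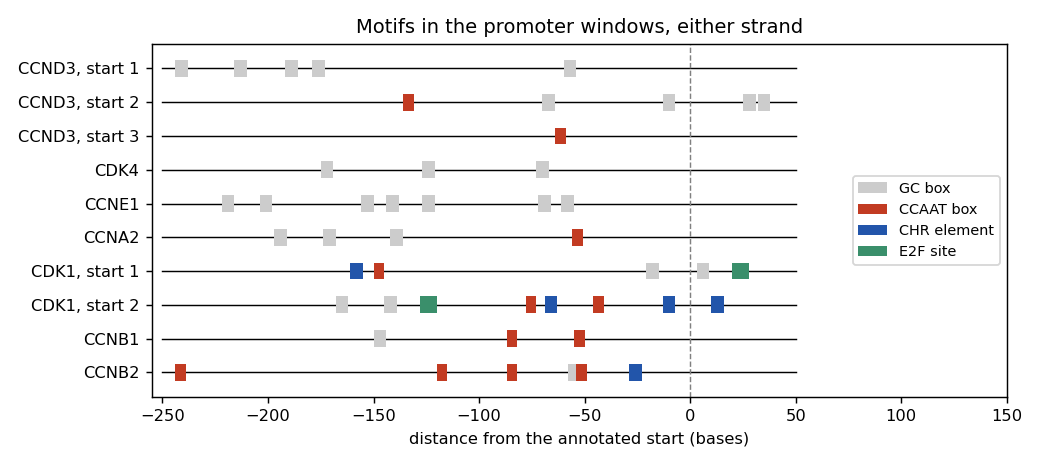
Places of 4 kinds of element in the 10 promoter windows, as the distance in bases from the annotated start (dashed line). CCAAT boxes are in red, CHR (the exact letters TTTGAA) in blue, E2F-like sites in green and GC boxes in grey. CCNB1, CCNB2, CCNA2, the second start of CDK1 and the third of CCND3 have red boxes within 130 bases upstream of the start, the first CDK1 start and the second CCND3 start have theirs farther away, and CDK4, CCNE1 and the first CCND3 start have grey boxes alone.

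The levels of the 10 genes were ordered per length, as FPKM computed from the counts, the listed length (the union of all annotated exons) and the normalised library size. In siControl the order from the top was CCND1 (73.3 ± 0.270, n = 2), CCNB1 (49.0 ± 1.32), CCNB2 (30.8 ± 0.433), CCNA2 (19.8 ± 0.942), CDK4 (16.0 ± 1.53), CDK1 (13.2 ± 0.784), CDK2 (5.58 ± 0.594), CCND3 (3.95 ± 0.301), CCNE2 (0.537 ± 0.117) and CCNE1 (0.386 ± 0.176). All neighbours in this order were separate in both libraries except CCNE2 and CCNE1, whose values overlapped. In siALKBH5 the order was CCNB1 (83.0 ± 2.04), CCND1 (65.8 ± 2.42), CCNB2 (54.5 ± 0.540), CCNA2 (35.0 ± 0.0023), CDK1 (18.9 ± 0.124), CDK4 (16.4 ± 0.514), CDK2 (7.48 ± 0.261), CCND3 (5.68 ± 0.0047), CCNE2 (0.582 ± 0.0155) and CCNE1 (0.504 ± 0.0608), with no overlap between neighbours. Per kilobase, CCNB1 thus took the place of CCND1 at the top of the 10, and CDK1 passed CDK4. This order depends on the listed length. In CPM, CCND1 stayed above CCNB1 in both groups (354 and 125 in siControl, 318 and 212 in siALKBH5). CDK1 and CDK4 had 51.8 and 50.8 CPM in siControl and 74.2 and 51.9 in siALKBH5. The place of CDK4 is also uncertain because of the stretch it shares with TSPAN31.

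These changes of place are seen as ratios of FPKM within a library. CCND1 was at 1.47 and 1.52 times the level of CCNB1 in siControl and at 0.759 and 0.828 times in siALKBH5. CDK1 was at 0.845 and 0.803 times the level of CDK4 in siControl and at 1.17 and 1.13 times in siALKBH5. CCND1 was at 17.6 and 19.6 times the level of CCND3 in siControl and at 11.3 and 11.9 times in siALKBH5. In each of the 3 ratios the groups did not overlap. With 2 libraries against 2, an exact permutation test cannot reach a p under 0.05, so these ratios are given as values.

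The classes were also summed in FPKM. The A- and B-type cyclins summed to 100 and 99.0 FPKM in siControl and to 174 and 171 FPKM in siALKBH5, 1.73 times the control mean. Within that sum CCNB1 gave 47.8% to 49.8%, CCNB2 30.8% to 31.7% and CCNA2 19.1% to 20.7% in every library, so the make-up hardly differed between the groups, and CCNA1 and CCNB3 gave under 0.1% in each. The D-type cyclins, CCND2 included, summed to 82.7 and 81.1 FPKM in siControl and to 73.3 and 76.8 in siALKBH5, and the part of CCND3 in that sum was 5.04% and 4.61% in siControl and 7.76% and 7.40% in siALKBH5. The sum of CDK1, CDK2, CDK4 and CDK6 was 38.0 and 39.8 FPKM in siControl and 47.7 and 48.0 in siALKBH5. The part of CDK1 in it was 33.2% and 34.5% in siControl and 39.4% and 39.5% in siALKBH5, and that of CDK4 was 39.3% and 43.0% against 33.6% and 34.9%. The E-type cyclins summed to 1.13 and 0.715 FPKM in siControl and to 1.03 and 1.14 in siALKBH5, and these ranges overlapped.

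**Figure D4:**
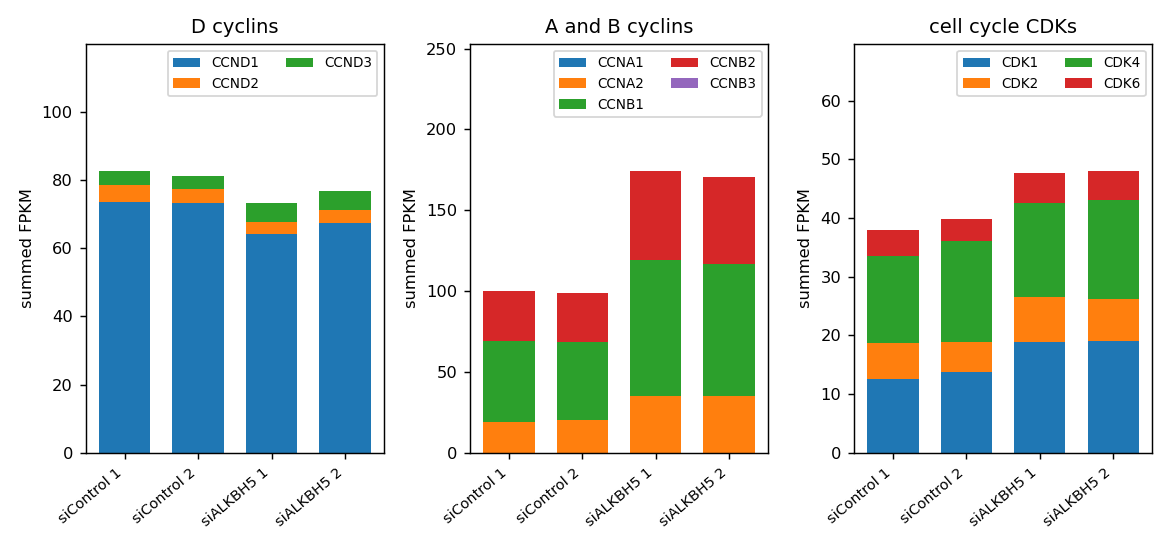
Summed FPKM of the D-type cyclins, of the A- and B-type cyclins and of the cell cycle CDKs in each library, with 1 colour for each gene; each bar starts at 0 and each panel has its own axis. The bars of the A- and B-type cyclins stand at 99.0 and 100 in siControl and at 171 and 174 in siALKBH5, and the D-type bars are lower in siALKBH5.

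The genes around these cyclins and CDKs were counted by list. The counts below are to be read beside all tested genes, of which 19.3% were higher and 17.3% lower. Among 4 tested genes of other cell cycle cyclins and CDKs, 2 were higher and 2 lower. CCNF, cyclin F, a ubiquitin ligase subunit that peaks in G2, rose from 29.1 to 51.7 CPM (log2 fold change 0.83, edgeR adjusted p = 5.86e-12), and CDK6 rose with a log2 fold change of 0.32 (edgeR adjusted p = 0.000129). CCND2 fell by 0.39 on the log2 scale (edgeR adjusted p = 0.00031). CDK3, with 3 to 14 counts a library, had a log2 fold change of -1.55 (SE 0.62, edgeR adjusted p = 0.0486). CCNA1 and CCNB3 had between 0 and 4 counts a library and were not tested.

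Other genes encode direct regulators of CDK activity. Of the 8 CKS subunits, CDC25 phosphatases, WEE1-type kinases and the CDK phosphatase CDKN3, 7 were higher and 0 lower, with a median log2 fold change of 0.68. CDC25B, which removes inhibitory phosphates from CDK1, had a log2 fold change of 0.75 (edgeR adjusted p = 2.52e-19), and the small CDK-binding subunit CKS1B had one of 0.62 (edgeR adjusted p = 1.5e-13). The gene of this list past a log2 fold change of 1 was PKMYT1, a kinase that inhibits CDK1, at 1.56 (edgeR adjusted p = 5.82e-13), named after its values were seen, as was CDC25A, the one not called, at 0.35 (edgeR adjusted p = 0.138). The members that rose thus held both activators and inhibitors of CDK1. In the CDK-activating kinase, CDK7 was higher by 0.16 on the log2 scale (edgeR adjusted p = 0.0352) and the other 2 subunits did not pass the test.

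Of the 7 CDK inhibitors, 3 were higher, 1 was lower and 3 did not pass the test (all tested genes: 19.3% higher, 17.3% lower). CDKN1A (p21) rose from 199 to 239 CPM (log2 fold change 0.27, edgeR adjusted p = 2.97e-08). CDKN2C (p18), an inhibitor of CDK4 and CDK6, had a log2 fold change of 0.72 (edgeR adjusted p = 2.33e-06), while CDKN2B (p15), of the same class, fell by 0.37 on the log2 scale (edgeR adjusted p = 9.37e-06). Of the 3 pocket proteins, which D-type and E-type kinases phosphorylate, RBL1 (p107) was higher by 0.48 (edgeR adjusted p = 0.000352), RBL2 (p130) was lower at -0.19 (edgeR adjusted p = 0.000384) and RB1 did not pass the test.

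Among the 5 genes of cyclin destruction, 4 were higher and 1 lower. CDC20, the activator of the anaphase-promoting complex that targets B-type cyclins in mitosis, had a log2 fold change of 0.81 (edgeR adjusted p = 1.06e-19), close to those of CCNB1 and CCNB2, and FZR1, its counterpart in G1, had one of 0.24 (edgeR adjusted p = 0.000302). FBXW7, which marks cyclin E for degradation, fell by 0.40 on the log2 scale (edgeR adjusted p = 0.00754). Of 11 tested transcription factors and complex subunits that act on cyclin genes, 4 were higher and 2 lower (all tested genes: 19.3% and 17.3%). MYBL2 rose from 23.3 to 59.5 CPM (log2 fold change 1.35, edgeR adjusted p = 3.37e-17) and FOXM1 from 40.7 to 87.8 CPM (1.11, edgeR adjusted p = 6.35e-17), and both estimates were above those of the 10 cyclins and CDKs, a comparison between genes that was not tested. RBBP4 (-0.21, edgeR adjusted p = 0.00137) and the NF-Y subunit NFYB (-0.25, edgeR adjusted p = 0.029) fell.

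The lists of transcription cyclins and CDKs and of other cyclins and CDK-like kinases held genes of both directions. Over all tested genes, 19.3% were higher and 17.3% lower. Of 13 tested transcription cyclins and CDKs, 3 were higher and 6 lower, with a median log2 fold change of -0.11. CCNL2 and CCNL1, cyclins tied to splicing, fell by 0.60 and 0.50 on the log2 scale (edgeR adjusted p = 9.05e-14 and 8.01e-11), CDK12 rose with a log2 fold change of 0.14 (edgeR adjusted p = 0.0119), and CDK11B had one of 0.35 (edgeR adjusted p = 0.000313), a value that is uncertain because the counting could split reads between it and its near-identical copy CDK11A. Of 14 tested members of the other cyclins and CDK-like kinases, 4 were higher and 5 lower, with a median of -0.073. CDK18 and CDK16 rose (0.48 and 0.32, edgeR adjusted p = 4.32e-10 and 2.32e-08), and CCNG2 and CCNG1 fell (-0.42 and -0.24, edgeR adjusted p = 1.68e-08 and 0.000258).

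**Figure D5:**
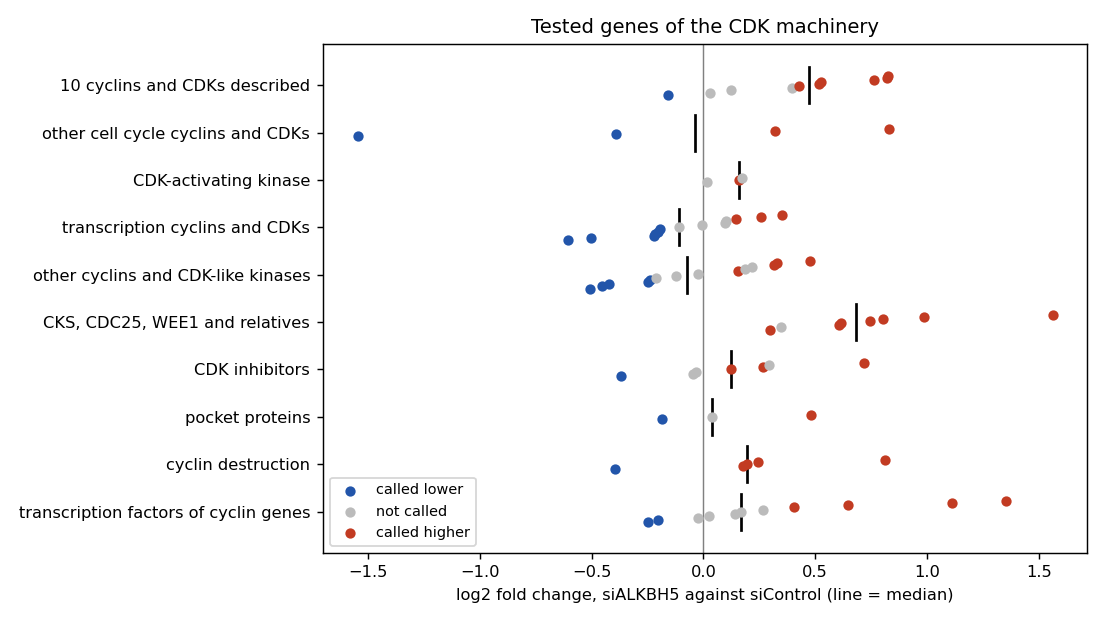
Log2 fold change, siALKBH5 against siControl, of each tested gene by list, with genes called higher in red, called lower in blue, not called in grey and a black line at the median of the list. The 10 cyclins and CDKs have their median at 0.47 and the CKS, CDC25 and WEE1 list at 0.68, and the transcription cyclins and CDKs have theirs at -0.11.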

How the data were processed

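Poly-A RNA of 4 HaCaT libraries was sequenced on a NovaSeq platform. The submitters' processing notes name HISAT2 2.0.5, featureCounts 1.5.0-p3 and hg38, and the authors deposited raw counts per gene with the gene length. The deposited FPKM and comparisons of single libraries were not used. All 58735 identifiers and coordinates match GENCODE 29. Strand and multi-read settings are not given in the sources used here.

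Counts of the 4 libraries were filtered with filterByExpr, normalised with TMM and compared by the quasi-likelihood test of edgeR 4.0.16 (R 4.3.3), with no covariates, and p-values were Benjamini-Hochberg adjusted over 15075 genes. SE and 95% intervals come from the same model. Groups follow the labels. The duplicates differed by more than sampling noise (chi-square per degree of freedom 1.77 and 1.90). The steps were tested on simulated data. Alternatives used DESeq2 1.42.0, limma 3.58.1, other scalings, filters and thresholds, a block for the deposited table, and each library left out.

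All 10 genes are named, and from each other list except the cell type markers the 2 with the smallest adjusted p in each direction. Members and lists were chosen with earlier results of these data known.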

Additional observations from a re-analysis of the deposited data

How the results depend on the processing

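The 6 genes called higher and the 1 called lower kept their direction and their call under all 11 alternatives. In 4 of these 1 library was left out, so that its group had a single library, which was assumed to vary like the other group. Their log2 fold changes ranged over 0.77 to 0.87 for CCNA2, 0.73 to 0.79 for CCNB1, 0.78 to 0.84 for CCNB2, 0.46 to 0.58 for CDK1, 0.42 to 0.61 for CCND3, 0.32 to 0.54 for CDK2 and -0.19 to -0.12 for CCND1, and the highest adjusted p was 0.0265 (CDK2). With a threshold of 0.5 in place of 1, 5 of the 10 were called higher with that fold, and CDK1 and CCND3 fell below it under some alternatives, at the lowest 0.46 and 0.42. The 3 genes that did not pass the test changed sign with a library left out: the log2 fold change ranged from -0.060 to 0.13 for CDK4, from -0.023 to 0.94 for CCNE1 and from -0.092 to 0.36 for CCNE2. CCNE1 and CCNE2 were under the filter of the limma fit. Over all genes, the main fit called 2913 higher and 2610 lower, from 15075 tested. The fit of limma on log2(FPKM + 1) called 1848 higher and 1847 lower, from 11823 tested. DESeq2 called 2052 higher and 1431 lower. The cause of these smaller numbers was not tested. The deviations of libraries from the same table had a correlation of 0.0753 over 11649 genes, so the tables were not taken as pairs, and with the table as a replicate block 5922 genes were called, among them all 5523 of the fit without it, with 6 of the 10 higher and 1 lower. The 2 lowest genes limit the depth: CCNE1 rests on 12 to 23 counts a library and CCNE2 on 36 to 47.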
